A study of Rattus norvegicus with 45 samples.

Results

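Immediate early genes are the first genes a cell transcribes after a stimulus. Expression of 10 such genes was followed in rat skeletal muscle after treatment with cerivastatin, a statin that blocks the enzyme HMG-CoA reductase. The genes were Fos, Jun, Junb, Egr1, Myc, Ier2, Ier3, Atf3, Btg2 and Nr4a1, and their probe sets were found by the gene symbol in the platform annotation, with no use of measured values. The genes themselves, and the further gene lists below, were chosen with earlier results of these data known. Of the 10 genes, 9 had a probe set there, with 12 probe sets in all, among 31042 probe sets and 11684 tested genes on the array. Btg2, an antiproliferative gene, was paired with no probe set in that table and was not analysed here. A filter on low signal kept 11 of the 12 probe sets, and each of the 9 genes is given by its brightest one.

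The 45 arrays came from female SD rats, an outbred laboratory strain, 30 from gastrocnemius, a mixed muscle rich in fast fibres, and 15 from soleus, a mostly slow muscle. Animals were dosed once daily for 14 days with cerivastatin at 0.1, 0.5 or 1.0 mg/kg/day or with vehicle, a methylcellulose solution of 0.5%. In the exercised groups the animals also ran on a treadmill at 20 m/min for 20 min a day on 5 days of the week. Gastrocnemius was measured at all doses and soleus at 1.0 mg/kg/day and vehicle, each exercised and unexercised, which gives 12 groups. The unexercised gastrocnemius at 1.0 mg/kg/day, the exercised gastrocnemius at 0.5 mg/kg/day and the unexercised soleus at 1.0 mg/kg/day had 3 arrays each, and the other 9 groups had 4. Soleus samples whose labels do not mention running were taken as unexercised. The labels call the replicates biological, and the tests below rest on their spread. The delay between the last run or dose and tissue collection is not given in the sources used here. By its labels the study crossed drug dose with running and set a fast muscle beside a slow one.

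Immediate early genes are switched on within minutes by growth factors, cytokines, stretch, calcium or stress, without new protein synthesis, and most of their messages decay quickly. The serum response factor, bound to CArG boxes, and factors of the CREB family, bound to cAMP response elements, drive many of them. Fos, Jun and Junb encode subunits of the AP-1 transcription factor, Egr1 a zinc finger factor, Myc a regulator of growth and ribosome production, and Atf3 a stress-induced bZIP factor. Nr4a1 encodes an orphan nuclear receptor that is abundant in fast muscle and responds to exercise and adrenergic signals. Ier3 encodes a modulator of survival signalling, and Ier2 a nuclear protein whose action is less well known.

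Upstream sequence was at hand for 5 of the 10 genes in RefSeq's promoter table (GRCr8, all plus strand for those shown). The 250 bases before the annotated start of Egr1, Junb, Ier2 and Nr4a1 are shown because the first 3 and the last moved in opposite directions below. Capitals mark CArG boxes and the cAMP response half-site TGACG, either strand, including the full element TGACGTCA. The windows are Egr1 chr18:26736828-26737077, Junb chr19:40080876-40081125, Ier2 chr19:40399123-40399372 and Nr4a1 chr7:134259888-134260137.
Egr1: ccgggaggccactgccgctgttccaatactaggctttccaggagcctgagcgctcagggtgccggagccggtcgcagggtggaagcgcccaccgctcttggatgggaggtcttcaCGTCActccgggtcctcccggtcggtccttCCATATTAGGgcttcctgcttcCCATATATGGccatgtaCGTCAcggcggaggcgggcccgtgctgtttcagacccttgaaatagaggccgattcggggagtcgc
Junb: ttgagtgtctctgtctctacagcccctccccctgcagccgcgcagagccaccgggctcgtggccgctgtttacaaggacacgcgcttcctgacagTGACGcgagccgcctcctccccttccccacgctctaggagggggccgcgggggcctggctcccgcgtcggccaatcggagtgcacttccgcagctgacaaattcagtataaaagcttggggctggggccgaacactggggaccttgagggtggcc
Ier2: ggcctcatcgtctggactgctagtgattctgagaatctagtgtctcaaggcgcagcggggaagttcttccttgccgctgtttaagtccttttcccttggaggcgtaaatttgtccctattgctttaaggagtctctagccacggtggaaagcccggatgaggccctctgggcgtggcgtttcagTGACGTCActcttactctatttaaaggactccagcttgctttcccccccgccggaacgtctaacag
Nr4a1: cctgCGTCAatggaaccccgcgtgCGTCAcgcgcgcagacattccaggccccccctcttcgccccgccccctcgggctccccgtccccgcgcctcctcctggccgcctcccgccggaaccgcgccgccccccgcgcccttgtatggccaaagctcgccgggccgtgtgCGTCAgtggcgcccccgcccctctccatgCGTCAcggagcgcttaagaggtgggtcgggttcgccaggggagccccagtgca

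The Egr1 window held 2 CArG boxes, a motif found in 1.5% of the 33469 windows of this length, and 2 half-sites. Ier2 held the full element TGACGTCA, which 1.59% of windows hold, and its 2 half-sites overlap within that element. Nr4a1 had 4 half-sites and Junb 1, while 18.2% of all windows held at least 1. The searched TGANTCA (AP-1) and CACGTG (the E-box bound by Myc) had 0 matches in these 4 windows, and 6.34% and 5.59% of all windows held them. The Nr4a1 window lies inside the gene's annotated span (chr7:134247153-134268044), so it precedes one of the gene's starts and not the outermost one. A match is only a string of letters and not a measured binding site.

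**Figure D1:**
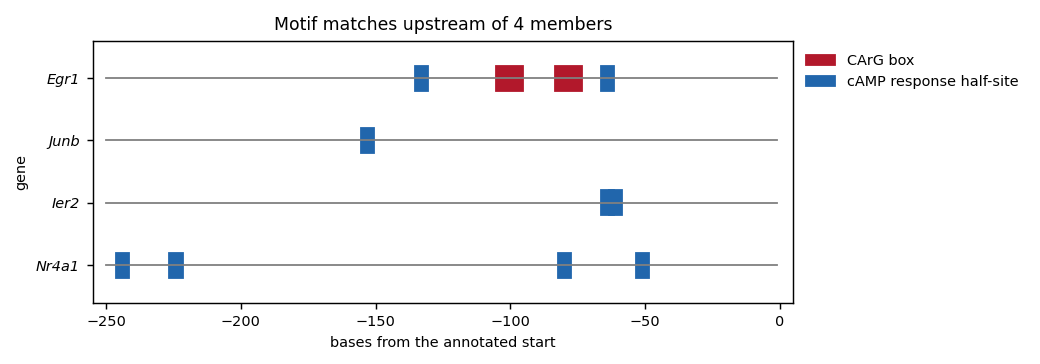
Positions of CArG boxes and of the cAMP response half-site, either strand, in the 250 bases before the annotated start of 4 genes; the horizontal axis gives bases from the start. Egr1 holds 2 CArG boxes flanked by 2 half-sites, the 2 half-sites of Ier2 overlap as 1 full element, Nr4a1 holds 4 half-sites and Junb 1.

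The arrays were comparable in scale, with trimmed means of 597.9 to 598.8. The 8 fast fibre markers separated the muscles as labelled, with sums of 90993 to 323251 in the 8 vehicle soleus arrays and 517362 to 639702 in the 8 vehicle gastrocnemius arrays. The slow list summed to 334807 to 531846 in soleus vehicle arrays and to 3653 to 379729 in gastrocnemius vehicle arrays, so the slow sums overlapped. In 3 arrays the 4 adipocyte markers summed to 57639 to 82441, against 3593 to 30101 in the other 42 arrays. They were unexercised gastrocnemius at 0.1 mg/kg/day replicate 3, exercised soleus at 1.0 mg/kg/day replicate 1 and unexercised soleus vehicle replicate 3. Their actin 5' to 3' signal ratios, a sign of RNA integrity, were 0.116, 0.245 and 0.255, among the 4 lowest of the 45 arrays. Unexercised gastrocnemius at 1.0 mg/kg/day replicate 3 stood apart from the other 2 arrays of its group and lay near vehicle for most members. Values without these arrays are given beside the members that they move most.

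In gastrocnemius of exercised rats at 1.0 mg/kg/day, messages of Fos, Junb, Egr1, Myc, Ier2 and Ier3 were higher than in exercised vehicle rats, and that of Nr4a1 was lower. Among the 9 genes, 6 passed the test as higher and 1 as lower, while Jun and Atf3 did not pass. In this comparison 23% of all 21729 tested probe sets were called higher and 20.4% lower, so calls were common over the whole array. The median log2 fold change of the 9 genes was 2.47, and that of all probe sets was -0.01. The test throughout is limma's, with Benjamini-Hochberg adjustment over all probe sets and a threshold of 0.05, and the ± given with a change is the SE of the estimate. Values are signals, the authors' linear intensities, and fold changes are on a log2(signal + 12.4) scale. In whole muscle, more cells of a type and more RNA per cell cannot be told apart.

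Egr1 and Myc, which both encode transcription factors, were separated without overlap. The Egr1 signal was 5004.2, 6728.6, 2625.9 and 8637.4 in the 4 exercised arrays at 1.0 mg/kg/day, against 671.3, 660.5, 764.8 and 958.2 in the 4 exercised vehicle arrays. The groups did not overlap, and the log2 fold change was 2.78 ± 0.59 (n = 4 each; limma adjusted p = 5.41e-04). Myc gave 1489.6, 1918.7, 673.3 and 1529.1 at 1.0 mg/kg/day, against 130.6, 198.0, 257.8 and 56.7 in vehicle. All treated arrays lay above all vehicle arrays, with a change of 3.10 ± 0.57 (adjusted p = 1.33e-04), the largest among the 9 genes. In both genes replicate 3 was the lowest treated array. Non-overlap was common in this comparison, with 6 of 9 members and 42.3% of all probe sets.

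The AP-1 subunits did not move as one. Junb was at 2931.8, 1828.0, 1323.1 and 1844.9 at 1.0 mg/kg/day, against 268.9, 251.1, 335.3 and 545.9 in vehicle, a rise of 2.47 ± 0.56 with no overlap (limma adjusted p = 0.0010). Fos was at 2033.9, 2851.8, 1162.5 and 3948.0 at 1.0 mg/kg/day, against 215.9, 2426.9, 203.2 and 219.7 in vehicle. The vehicle array of replicate 2 lay within the treated range, so the groups overlapped. The change in Fos was 2.48 ± 0.76 (adjusted p = 0.0095) and came to 3.34 (adjusted p = 6.53e-04) without that array. Jun was at 3084.5, 3199.7, 4594.8 and 3913.9 at 1.0 mg/kg/day, against 3542.7, 8007.5, 5385.6 and 5879.1 in vehicle. Its change of -0.58 ± 0.27 did not pass (adjusted p = 0.0784), but passed without vehicle replicate 1, at -0.79 (adjusted p = 0.0236). The other 2 probe sets of Jun gave -0.32 ± 0.25 and -0.53 ± 0.24 and did not pass either.

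The other genes called higher were Ier2 and Ier3. Ier2 was at 1420.6, 1457.5, 792.1 and 1928.4 at 1.0 mg/kg/day, against 452.0, 345.8, 310.0 and 394.4 in vehicle, a change of 1.81 ± 0.43 (adjusted p = 0.0013). Ier3 was at 7854.2, 6564.2, 1751.7 and 6689.2 at 1.0 mg/kg/day, against 520.1, 1608.5, 450.5 and 385.4 in vehicle, a change of 2.98 ± 0.63 (adjusted p = 5.02e-04). Neither gene's groups overlapped, though treated replicate 3 of Ier3 lay close to vehicle replicate 2.

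Nr4a1 ran the other way and Atf3 showed no difference that passed the test. Nr4a1 was at 1025.9, 671.0, 1391.0 and 643.1 at 1.0 mg/kg/day, against 5899.7, 5159.3, 2840.7 and 3862.2 in vehicle. Every treated array lay below every vehicle array, and the change was -2.25 ± 0.39 (limma adjusted p = 8.39e-05). Atf3 was at 775.4, 918.3, 1565.9 and 1107.5 at 1.0 mg/kg/day, against 765.8, 5099.6, 821.5 and 370.9 in vehicle. Its change was 0.01 ± 0.54 (95% interval -1.11 to 1.12) and came to 0.76 (adjusted p = 0.1804) without vehicle replicate 2, the array that was also high for Fos. All 7 calls held under each of 14 other settings and without each of the 8 arrays in turn.

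**Figure D2:**
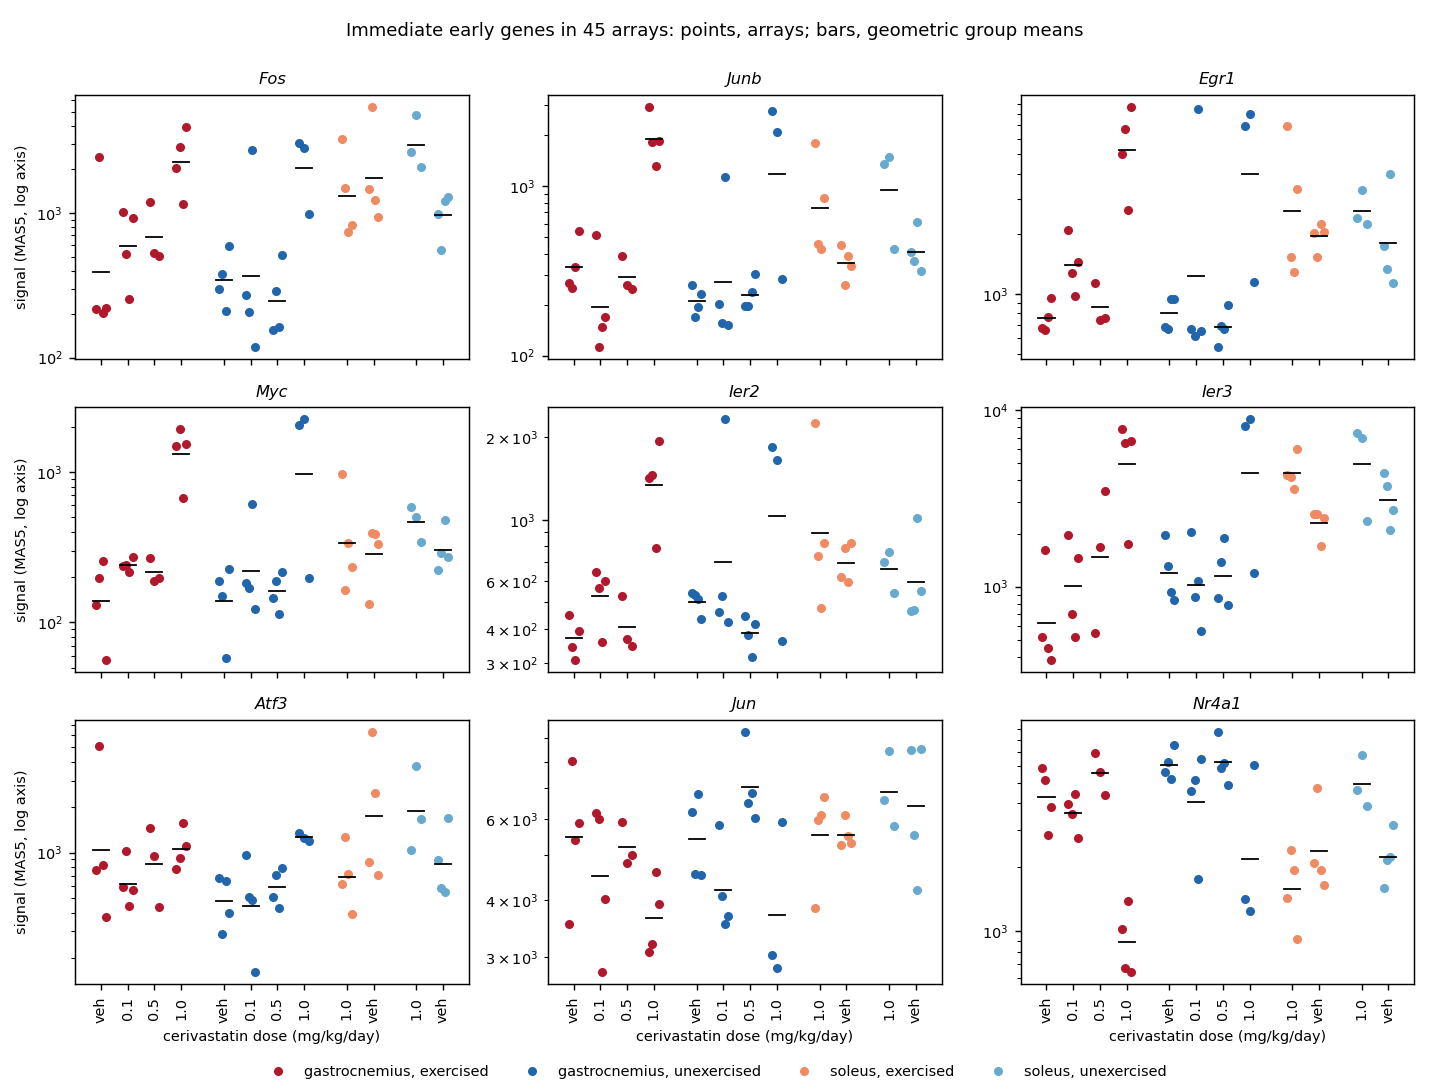
Signal of 9 immediate early genes in each of the 45 arrays (log axis) by muscle, exercise and cerivastatin dose in mg/kg/day; veh is vehicle, points are arrays and bars are geometric means. In exercised gastrocnemius at 1.0 mg/kg/day all 4 arrays of Egr1, Junb, Myc, Ier2 and Ier3 lie above, and those of Nr4a1 below, the vehicle arrays, and in unexercised gastrocnemius 1 of the 3 arrays at 1.0 mg/kg/day lies near vehicle.

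Without running, the same dose gave a split group. In 2 of the 3 gastrocnemius arrays at 1.0 mg/kg/day the members were at the levels of the exercised high-dose animals, and the array of replicate 3 was close to vehicle. By the test 4 genes were higher (Fos, Junb, Egr1 and Myc) and 1 lower (Nr4a1) of 9, with 5.7% of all tested probe sets higher and 3.81% lower. The median change of the 9 genes was 1.88, and that of all probe sets 0.03. The groups did not overlap for 4 of 9 members and for 15% of all probe sets.

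Egr1 was at 6964.7, 7957.5 and 1139.6 in the 3 unexercised arrays at 1.0 mg/kg/day, against 685.3, 665.7, 944.2 and 940.6 in unexercised vehicle. The change was 2.30 ± 0.64 (limma adjusted p = 0.0290), with the third treated array just above the highest vehicle array. Myc was at 2042.4, 2232.9 and 198.6 at 1.0 mg/kg/day, against 189.4, 150.4, 58.0 and 226.7 in vehicle, and changed by 2.69 ± 0.61 (adjusted p = 0.0139). Here the third array lay inside the vehicle range. Junb was at 2764.4, 2085.4 and 281.9 at 1.0 mg/kg/day, against 261.8, 169.2, 194.6 and 231.7 in vehicle, a change of 2.42 ± 0.61 (adjusted p = 0.0202).

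Fos and Nr4a1 differed in where the third array fell. Fos was at 3052.8, 2799.6 and 986.0 at 1.0 mg/kg/day, against 296.9, 378.1, 209.1 and 589.5 in vehicle, with no overlap, and its change of 2.52 ± 0.82 was just past the threshold (adjusted p = 0.0495). The Fos call held in 6 of 14 other settings and was lost, among others, with quantile normalization (adjusted p = 0.0548), with no filter (0.0609) and with an offset of 1 (0.0525). Nr4a1 was at 1415.3, 1248.0 and 6039.9 at 1.0 mg/kg/day, against 5635.1, 6264.7, 5232.1 and 7508.5 in vehicle. The third array lay within the vehicle range, and the change was -1.46 ± 0.42 (adjusted p = 0.0330).

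The genes that did not pass differed in how their arrays fell. Ier3 was at 8101.6, 8873.5 and 1191.1 at 1.0 mg/kg/day, against 1970.7, 1302.9, 928.0 and 840.2 in vehicle (1.88 ± 0.68, adjusted p = 0.0734). Ier2 was at 1834.0, 1649.8 and 361.1 at 1.0 mg/kg/day, against 539.6, 532.8, 513.7 and 436.1 in vehicle (1.02 ± 0.46, adjusted p = 0.1462). In both, the third array was at or below vehicle levels. Atf3 was at 1358.0, 1243.1 and 1186.3 at 1.0 mg/kg/day, against 672.9, 290.2, 649.5 and 397.4 in vehicle. For Atf3 all 3 arrays, the third included, lay above vehicle, but the change of 1.39 ± 0.59 did not pass (adjusted p = 0.1232). Jun was at 3036.9, 2833.6 and 5913.3 at 1.0 mg/kg/day, against 4540.1 to 6806.0 in vehicle (-0.55 ± 0.29, adjusted p = 0.2125).

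These calls depended on single arrays. Without treated replicate 3, 8 of the 9 genes were called, 6 higher and 2 lower, with Egr1 at 3.20 and Nr4a1 at -2.19. With treated replicate 1 or replicate 2 left out, 0 genes were called, and leaving out vehicle replicates 1, 2, 3 or 4 left 2, 1, 2 and 3. A fit on these 7 arrays alone called 0 genes, with the same fold changes.

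**Figure D3:**
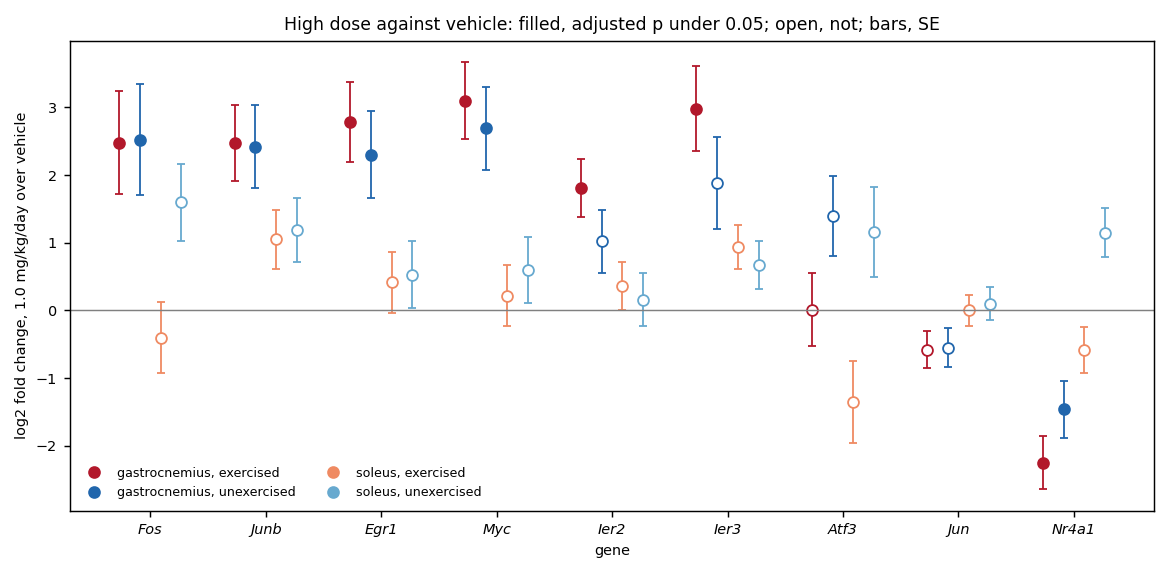
Log2 fold change of 9 genes at 1.0 mg/kg/day over vehicle in gastrocnemius and soleus, exercised and unexercised; bars are SEs, filled points have an adjusted p under 0.05 and open points do not. Filled points occur only in gastrocnemius, for 7 genes with running and 5 without, and none of the 18 soleus points is filled.

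No member passed a test of whether running changed the effect of the high dose in gastrocnemius. In limma's interaction of exercise and dose, 0 of 9 genes and 0% of probe sets were called, 0 genes and 6.33% of probe sets had an unadjusted p under 0.05, and the member estimates ranged from -1.38 for Atf3 to 1.10 for Ier3. The intervals were wide: that for Fos was -2.33 to 2.25 and that for Egr1 -1.32 to 2.27. Exercised against unexercised arrays at 1.0 mg/kg/day also gave 0 of 9 genes, with 0.0046% of probe sets higher and 0% lower. Nr4a1 had the lowest p there, at 643.1 to 1391.0 in exercised arrays and 1248.0 to 6039.9 in unexercised arrays (-1.30 ± 0.42, unadjusted p = 0.0047, adjusted p = 0.3848), and 11.7% of probe sets had an unadjusted p under 0.05. The Nr4a1 difference was -0.58 without unexercised replicate 3.

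At the lower doses no member passed the test. In exercised gastrocnemius 0 of 9 genes and 0% of probe sets were called at 0.1 mg/kg/day, and 0 of 9 and 0% at 0.5 mg/kg/day, and in unexercised gastrocnemius the counts were likewise 0 of 9 and 0% at both doses. At an unadjusted p under 0.05, 0 of the 9 genes passed in any of these 4 comparisons, against 2.73% to 4.4% of probe sets. Egr1 in exercised animals was at 671.3 to 958.2 in vehicle, 980.5 to 2081.4 at 0.1 mg/kg/day, 735.5 to 1137.9 at 0.5 mg/kg/day and 2625.9 to 8637.4 at 1.0 mg/kg/day. The arrays at 0.1 mg/kg/day lay above those of vehicle, at 0.87 ± 0.59 (adjusted p = 0.9999), and 4.72% of all probe sets also had no overlap, while those at 0.5 mg/kg/day overlapped vehicle. Fos in exercised animals was at 255.7 to 1019.1 at 0.1 mg/kg/day and 502.0 to 1199.0 at 0.5 mg/kg/day, all above the 3 lower vehicle arrays. Its change at these doses was 0.58 ± 0.76 and 0.77 ± 0.82, or 1.44 and 1.63 without vehicle replicate 2, and neither passed.

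One array of the unexercised 0.1 mg/kg/day group stood apart for several members. Replicate 3 had Egr1 at 8411.7 against 611.7 to 667.9 in the other 3, Ier2 at 2317.0 against 426.2 to 526.9, and Junb at 1126.1 against 150.8 to 203.1. It was also the highest of its group for Fos (2742.3) and Myc (611.6) and the lowest for Jun (3546.7) and Nr4a1 (1755.9). Ier3 (1080.2) and Atf3 (483.5) on that array lay within the range of the other 3. This is the array with the lowest actin ratio, 0.116, and its macrophage markers summed to 59894 and its adipocyte markers to 82441. The part of these in its levels was not tested. Without it the changes of Fos, Junb and Egr1 against vehicle were -0.83, -0.31 and -0.30, against 0.12, 0.36 and 0.62 with it.

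Running alone gave no call in either muscle (limma, 1 of 9 genes and 3.33% of probe sets at an unadjusted p under 0.05 in gastrocnemius, 0 and 2.97% in soleus). In gastrocnemius of vehicle animals 0 of 9 genes and 0% of probe sets differed between exercised and unexercised rats, and in soleus again 0 of 9 and 0%. In gastrocnemius Nr4a1 was at 2840.7 to 5899.7 in exercised arrays and 5232.1 to 7508.5 in unexercised arrays (-0.51 ± 0.39, 95% interval -1.32 to 0.29). Atf3, at an unadjusted p of 0.0482 the lowest of the 9 in gastrocnemius, was at 765.8, 5099.6, 821.5 and 370.9 in exercised arrays, against 672.9, 290.2, 649.5 and 397.4 in unexercised arrays (1.12 ± 0.54, adjusted p = 0.9999). Much of that lay in 1 array, since the change was 0.37 without exercised replicate 2.

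The replicates numbered 2 of the exercised vehicle groups were the highest for Fos and Atf3 in both muscles. In gastrocnemius that array had Fos at 2426.9 and Atf3 at 5099.6. In soleus replicate 2 had Fos at 5402.0 against 939.0 to 1462.4 in the other 3, Atf3 at 6327.2 against 705.3 to 2476.9 and Nr4a1 at 4749.4 against 1645.3 to 2103.8. Junb and Egr1 were the lowest of their group in both of these arrays, so Fos and Atf3 were high there without them. Whether the 2 arrays come from the same animal is not given in the sources used here. Exercised against unexercised soleus gave 0.84 ± 0.53 for Fos and 1.07 ± 0.61 for Atf3, neither past the test.

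In soleus the high dose gave no call. In exercised soleus 0 of 9 genes and 0% of probe sets passed, and in unexercised soleus 0 of 9 and 0%; at an unadjusted p under 0.05, 3 genes passed in each, against 5.32% of probe sets with running and 2.73% without. The groups did not overlap for 1 and 2 of the 9 members, and for 3.3% and 3.74% of probe sets. Egr1 was at 6945.2, 1525.2, 1293.7 and 3370.8 in exercised soleus at 1.0 mg/kg/day, against 2019.0, 1537.0, 2234.9 and 2053.1 in exercised vehicle (0.42 ± 0.45, 95% interval -0.53 to 1.38). Replicate 1, which has a low actin ratio and a high adipocyte sum, was the highest treated array for Fos, Junb, Egr1, Myc and Ier2. Without it the changes were -0.05 for Egr1, 0.63 for Junb, -0.28 for Myc, -0.08 for Ier2 and -0.84 for Fos, and none passed. Junb was at 1795.6, 454.3, 427.5 and 856.6 at 1.0 mg/kg/day, against 261.2 to 451.9 in vehicle (1.05 ± 0.44, unadjusted p = 0.0295, adjusted p = 0.9079). Ier3 was at 4313.3, 4164.1, 3597.7 and 6003.7 at 1.0 mg/kg/day, against 2590.2, 2587.1, 1695.5 and 2461.1 in vehicle, without overlap (0.94 ± 0.32, unadjusted p = 0.0102, adjusted p = 0.9079). Atf3 had the lowest estimate of the 9 genes, -1.35, and did not pass. It was at 388.1 to 1276.2 at 1.0 mg/kg/day, against 705.3 to 6327.2 in vehicle, with overlap.

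In unexercised soleus the estimates of all 9 genes lay above 0, from 0.10 for Jun to 1.60 for Fos, but none passed. Fos was at 2632.2, 4736.0 and 2077.3 at 1.0 mg/kg/day, against 990.6, 555.3, 1213.0 and 1298.0 in vehicle, with no overlap (1.60 ± 0.57, unadjusted p = 0.0125, limma adjusted p = 1.0000). Nr4a1 was at 4640.6, 6749.5 and 3898.1 at 1.0 mg/kg/day, against 1604.5, 2176.9, 2232.7 and 3174.2 in vehicle, also with no overlap (1.15 ± 0.36, unadjusted p = 0.0063, adjusted p = 1.0000). The Nr4a1 estimate was above 0 here and below 0 in gastrocnemius at the same dose. Junb also had an unadjusted limma p under 0.05, at signals of 427 to 1496.6 at 1.0 mg/kg/day against 316.8 to 616 in vehicle, with overlap. Atf3, whose unadjusted p was not under 0.05, was at 1046.5, 3742.6 and 1681.7 at 1.0 mg/kg/day, against 551.1 to 1692.9 in vehicle (1.16 ± 0.66).

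The interaction of exercise and dose in soleus had 0 of 9 genes and 0% of probe sets called, and 3 genes and 3.24% of probe sets had an unadjusted p under 0.05. Its estimates were -1.74 ± 0.50 for Nr4a1 and -2.50 ± 0.90 for Atf3, each with an adjusted p of 0.9992, and the 95% interval for Fos was -3.65 to -0.36. For Atf3 the estimate was -1.89 without exercised vehicle replicate 2.

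Between the muscles of vehicle animals, 1 of 9 members was called without running and 2 of 9 with it, beside 7.02% and 13.2% of probe sets. Each of these calls was lost without some single arrays. In unexercised vehicle animals Nr4a1 was lower in soleus, at 1604.5 to 3174.2, than in gastrocnemius, at 5232.1 to 7508.5, and this was 1 of 9 genes called, with 3.76% of probe sets lower and 3.26% higher. The change was -1.45 ± 0.39 (limma adjusted p = 0.0192), and it missed the threshold without gastrocnemius replicate 4 (adjusted p = 0.0517) or soleus replicate 1 (adjusted p = 0.0728). Egr1, Ier3 and Junb had no overlap between the muscles either, and none of them passed. Such non-overlap was found for 4 of 9 members and 16.7% of all probe sets. Egr1 was at 1135.4 to 3981.1 in soleus and 665.7 to 944.2 in gastrocnemius (1.16 ± 0.57, adjusted p = 0.2263). Ier3 was at 2101.2 to 4415.6 in soleus and 840.2 to 1970.7 in gastrocnemius (1.38 ± 0.56, adjusted p = 0.1348). Junb was at 316.8 to 616.0 in soleus and 169.2 to 261.8 in gastrocnemius (0.92 ± 0.54, adjusted p = 0.3226). Without soleus replicate 3, the array of high adipocyte signal, the changes were 0.78 for Egr1, 0.73 for Junb, 1.57 for Ier3 and -1.45 for Nr4a1, and Nr4a1 alone of these passed (adjusted p = 0.0393). Muscle and RNA input (3 µg for soleus and 4 µg for gastrocnemius, per the labels) cannot be told apart here.

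In exercised vehicle animals 2 of 9 genes were higher in soleus and 0 lower, with 6.33% of probe sets higher and 6.83% lower. Fos was at 1462.4, 5402.0, 1222.9 and 939.0 in soleus, against 215.9, 2426.9, 203.2 and 219.7 in gastrocnemius (2.10 ± 0.72, adjusted p = 0.0452). Ier3 was at 2590.2, 2587.1, 1695.5 and 2461.1 in soleus, against 520.1, 1608.5, 450.5 and 385.4 in gastrocnemius (1.87 ± 0.56, adjusted p = 0.0225). Both calls were lost without several single arrays. Fos kept its call in 2 of 8 fits that left out 1 array and Ier3 in 2 of 8, and without gastrocnemius replicate 1, 3 or 4 or soleus replicate 1 or 2 no member was called.

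The change at 1.0 mg/kg/day in soleus minus that in gastrocnemius was tested directly. In exercised animals it was lower for 3 of 9 genes and higher for 1, with 13.7% of probe sets lower and 11.6% higher. Myc differed by -2.89 ± 0.78 (limma adjusted p = 0.0067), with a change of 0.22 in soleus and 3.10 in gastrocnemius, and was called without each of the 16 arrays in turn. Egr1 differed by -2.36 ± 0.81 (adjusted p = 0.0293) and Fos by -2.88 ± 1.01 (adjusted p = 0.0330), with soleus changes of 0.42 and -0.40. Nr4a1 differed by 1.67 ± 0.55 (adjusted p = 0.0234), with a change of -0.59 in soleus and -2.25 in gastrocnemius. The Ier3 and Ier2 differences, -2.03 ± 0.80 and -1.45 ± 0.59, did not pass (adjusted p = 0.0567 and 0.0686), nor did Junb, Atf3 and Jun.

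Leaving out 1 array lost the Egr1 call in 4 of 16 fits (treated gastrocnemius replicates 2 and 4, treated soleus replicates 2 and 3), the Nr4a1 call in 5 and the Fos call in 8. The lowest count, 1 gene, came without treated gastrocnemius replicate 2 or replicate 4. It was 2 without gastrocnemius vehicle replicate 1 or without treated soleus replicate 2 or 3.

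In unexercised animals 0 of 9 genes were called, with 0.0046% of probe sets higher and 0.0046% lower, and 3 genes and 18.1% of probe sets had an unadjusted p under 0.05. Nr4a1 had a difference of 2.61 ± 0.59 (unadjusted p = 8.37e-05, adjusted p = 0.0745), from a change of 1.15 in soleus and -1.46 in gastrocnemius. Without unexercised treated gastrocnemius replicate 3, 4 genes passed, namely Nr4a1 at 3.34, Myc at -3.21, Egr1 at -2.67 and Junb at -2.24.

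Markers of other cell types also changed in gastrocnemius at 1.0 mg/kg/day. In exercised gastrocnemius at 1.0 mg/kg/day 17 of 17 tested macrophage markers were higher (median 4.21), with sums of 110697 to 240791 against 9050 to 11507 in vehicle, and 9 of 9 muscle fibre markers were lower (median -1.81), with sums of 133374 to 335030 against 498250 to 570311 in vehicle. Among them Aif1 and Tyrobp, both of the macrophage lineage, changed by 5.22 ± 0.57 and 5.07 ± 0.65. Exercised replicate 3 at this dose was the lowest of its group for Fos, Junb, Egr1, Myc, Ier2 and Ier3. Its macrophage sum of 175094 lay above that of replicate 1 (110697) and below those of replicates 2 (197568) and 4 (240791). Without running, 16 of the 17 were higher at that dose, and the sums of the 3 arrays were 138587, 154269 and 17440, so the third array was low here too, against 7609 to 25230 in vehicle. In treated soleus 0 of 17 passed with or without running, and the sums were 24958 to 55327 in exercised treated arrays, against 13056 to 32377 in exercised vehicle. In unexercised soleus they were 24479 to 28947 in treated arrays, against 16316 to 46404 in vehicle. The lowest signal of any of the 17 macrophage markers on any array was 48.9. The part of these cells in the member values was not tested.

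Markers of further cell types are given by their counts, beside the 23% of all probe sets called higher and the 20.4% called lower. In exercised gastrocnemius at 1.0 mg/kg/day 3 of 3 tested neutrophil, 3 of 4 lymphocyte, 6 of 8 fibroblast, 3 of 8 endothelial and 3 of 6 satellite cell markers were higher, with 0 lower. The filter on low signal kept 3 of 5 neutrophil and 4 of 10 lymphocyte markers that had a probe set. Vehicle means were 50.62 for S100a9, 48.18 for S100a8 and 36.08 for Cd8a. Such markers could pass the filter through the arrays where they are high, so these 2 counts carry little weight. Of the fast fibre markers 7 of 8 were lower, of the slow fibre markers 0 of 8 passed, of the smooth muscle markers 1 of 6 was lower, and 0 of 4 adipocyte and 0 of 3 erythroid markers passed.

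**Figure D4:**
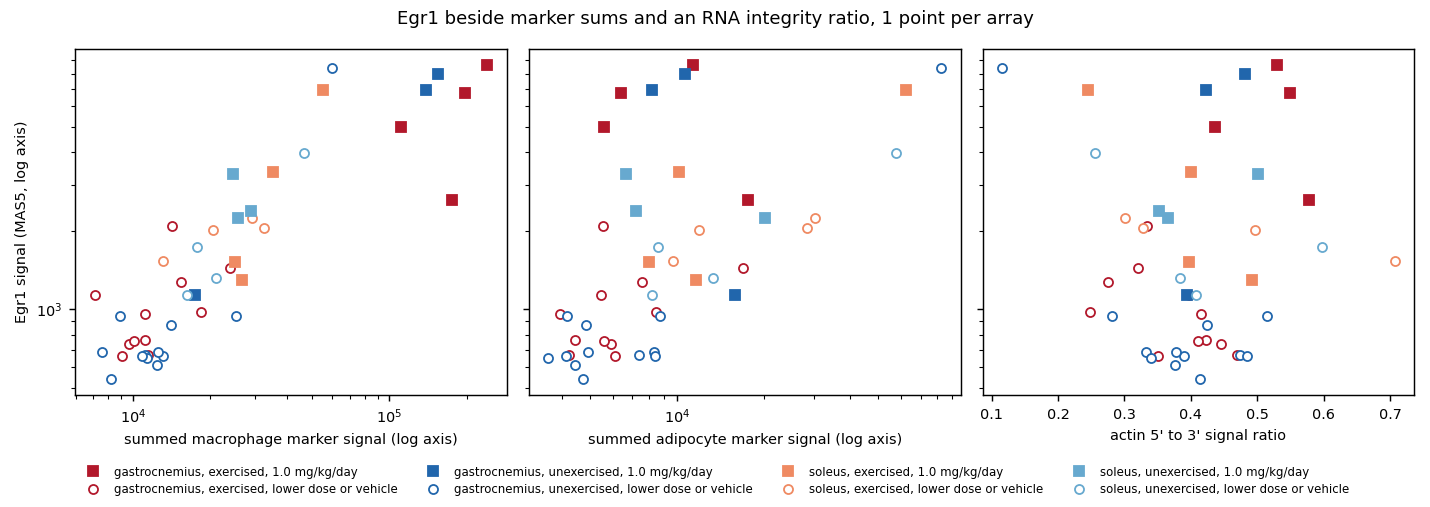
Egr1 signal (log axis) of each of the 45 arrays against the summed signal of 17 macrophage markers, the summed signal of 4 adipocyte markers (both log axes) and the actin 5' to 3' signal ratio; filled squares are arrays at 1.0 mg/kg/day and open circles all others. The 4 exercised gastrocnemius arrays at 1.0 mg/kg/day have macrophage sums of 110697 to 240791, and 3 arrays with Egr1 at 3981.1 to 8411.7 have adipocyte sums of 57639 to 82441 and actin ratios of 0.116 to 0.255.

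Exercised gastrocnemius at 1.0 mg/kg/day had actin ratios of 0.437 to 0.578, against 0.350 to 0.469 in exercised vehicle, and the part of RNA integrity in the Egr1 values was not tested. With the 3 arrays of highest adipocyte signal left out, none of which is in that comparison, the same 7 members were called there and 0 in either soleus comparison. In the muscle difference of exercised animals, which loses treated soleus replicate 1, Junb (-1.84) and Ier2 (-1.89) passed as well. Leaving out these arrays was chosen after seeing the data.

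Members that were high together on an array were not all of one kind. Over deviations from group means on the 45 arrays, Pearson's r was 0.91 between Egr1 and Ier2 (Spearman's rho 0.75), 0.86 between Egr1 and Junb (rho 0.85) and 0.53 between Fos and Atf3 (rho 0.43). Nr4a1 ran against Egr1, with r of -0.71 (rho -0.66), and Jun against Myc, with r of -0.46 (rho -0.39). Atf3 was at -0.10 with Egr1 and -0.12 with Junb, so it shared little of their pattern. These are descriptions over arrays that share groups, and the 3 arrays of high adipocyte signal weigh on some of them. The unexercised gastrocnemius group at 1.0 mg/kg/day, with its replicate 3 apart, also has wide deviations (log2 SD 1.56 for Egr1 and 1.93 for Myc). Correlations without that group were not computed. Over the 42 arrays without high adipocyte signal, r was 0.81 between Egr1 and Ier2, where rho fell to 0.51. It was 0.80 between Egr1 and Junb (rho 0.79), -0.74 between Egr1 and Nr4a1 (rho -0.64) and 0.67 between Fos and Atf3 (rho 0.54). Between Fos and Egr1 r was 0.35 (rho 0.35) where it had been 0.62. Myc had r of 0.55 with Egr1 (rho 0.29), 0.48 with Junb (rho 0.28) and 0.62 with Ier2 (rho 0.31). Over all 45 arrays these r of Myc had been 0.69, 0.64 and 0.74. Between Ier2 and Junb r was 0.69 (rho 0.44) over the 42 arrays. Nr4a1 had a rho there of -0.45 with Junb, -0.18 with Ier2 and -0.30 with Myc. The patterns of other genes below are over all 45 arrays.

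**Figure D5:**
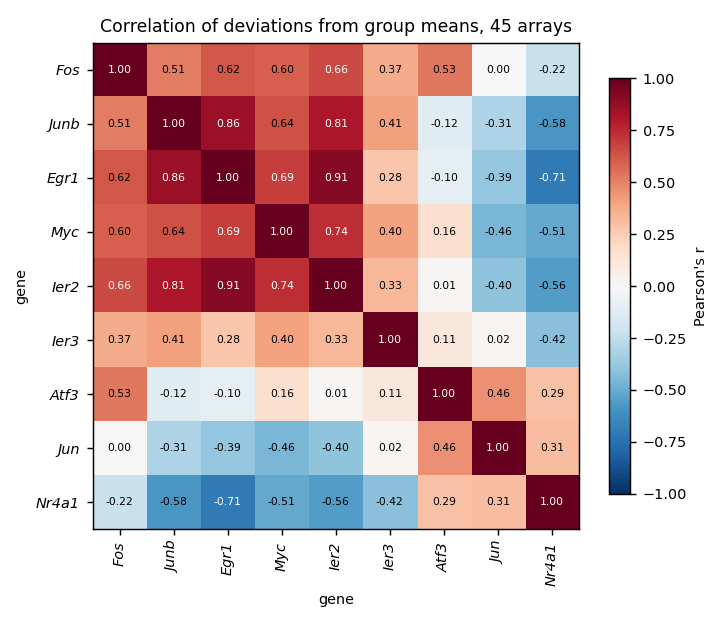
Pearson's r between 9 genes over deviations of log2 signal from group means in 45 arrays; red is positive and blue negative, and each cell prints r. Egr1, Junb, Ier2 and Myc form a block of r from 0.64 to 0.91, Nr4a1 is negative with each of them, and Atf3 is positive mainly with Fos (0.53) and Jun (0.46). Over the 42 arrays without high adipocyte signal, not drawn, the lowest r in that block, Junb with Myc, is 0.48 (rho 0.28).

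Among all other tested genes, the one with the pattern most like Fos was Ier5, itself an immediate early gene, at r = 0.88 over deviations and 0.89 over levels on the 45 arrays, where levels also carry the group differences. Junb was most like Sbno2 (0.83 over deviations, 0.93 over levels), Atf3 most like Otud1 (0.73 and 0.77), and Ier3 most like Dnaja1 over deviations (0.78) and Calu over levels (0.87). For Egr1 the closest were Pdia3 over deviations (0.90) and Ptbp3 over levels (0.93), for Ier2 Eif6 (0.89) and Plac8 (0.92), for Myc Manf (0.84) and Ugdh (0.92), for Nr4a1 Pyurf (0.79) and Cdip1 (0.87), and for Jun Ccdc51 (0.74 and 0.82). The mean pattern of the standardised members was closest to Ier5, at 0.85 and 0.89.

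The level of each gene across the 12 groups had its own order. By mean log2 signal, Fos was highest in unexercised soleus at 1.0 mg/kg/day (mean signal 3148 ± 1403, SD, n = 3), then in exercised gastrocnemius at 1.0 mg/kg/day (2499 ± 1187, n = 4), and lowest in unexercised gastrocnemius at 0.5 mg/kg/day (279.1 ± 166.3, n = 4). Egr1 was highest in exercised (5749 ± 2557) and then unexercised (5354 ± 3683) gastrocnemius at 1.0 mg/kg/day and lowest in unexercised gastrocnemius at 0.5 mg/kg/day (691.9 ± 138.1). Nr4a1 was highest in unexercised gastrocnemius at 0.5 mg/kg/day (6422 ± 1620) and in unexercised vehicle (6160 ± 994.3), and lowest in exercised gastrocnemius at 1.0 mg/kg/day (932.8 ± 351.7). The first 2 groups in each of these orders differed by less than their SDs.

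Over all 45 arrays Jun had the narrowest range, 2784.6 to 9282.8 with a median of 5544.1, a ratio of 3.33 between the highest and the lowest array. Fos had the widest, from 118.3 to 5402.0 with a median of 939.0 and a ratio of 45.7. Levels of different probe sets cannot be set against each other. The second Fos probe set stayed between 10.5 and 184.8 on all arrays, failed the filter and was not tested. In exercised gastrocnemius it was at 97.5, 64.6, 63.7 and 20.2 at 1.0 mg/kg/day, against 74.8, 14.9, 83.3 and 90.7 in vehicle, with overlap. The 2 Fos probe sets thus disagree, and the brighter one is used throughout.

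Other immediate early genes were counted over a wider list. Of 47 tested genes on a wider list, 20 were higher and 0 lower in exercised gastrocnemius (median 0.85), 7 higher and 0 lower in unexercised gastrocnemius (median 0.79, with 5.7% of all probe sets higher and 3.81% lower there), and 0 passed in either soleus comparison (medians -0.07 with running and 0.20 without). With running, Egr2, a zinc finger relative of Egr1, averaged 1172 at 1.0 mg/kg/day and 157.6 in vehicle (2.75 ± 0.50, adjusted p = 1.27e-04). Zfp36l2, which speeds the decay of AU-rich messages, rose by 2.57 ± 0.47, the cytokine signalling inhibitor Socs3 by 2.49 ± 0.69 and the ERK phosphatase gene Dusp5 by 2.43 ± 0.51.

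Genes of the signalling upstream were more often lower than higher with running at the high dose. Of 15 tested upstream genes 2 were higher and 8 lower (median -0.53). Elk3, an ETS partner of the serum response factor, rose by 1.96 ± 0.43, while the stress kinase genes Mapk9, Mapk8 and Mapkapk2 fell, at -1.69 ± 0.42, -1.10 ± 0.21 and -0.99 ± 0.28. Without running 0 were higher and 1 lower, and in soleus 0 passed. Of 11 feedback inhibitors of MAP kinase signalling, 6 were higher and 2 lower with running and 1 higher and 0 lower without. Dusp6, another ERK phosphatase gene, rose by 1.74 ± 0.29, Errfi1, an inhibitor of the EGF receptor, by 1.78 ± 0.38, and Dusp8, which acts on stress kinases, fell, at -2.11 ± 0.43.

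Dimer partners and networks of single members were mixed. Of 14 bZIP partners 2 were higher and 3 lower with running, and 1 higher and 0 lower without. Batf3, a bZIP factor of immune cells, averaged 282.2 at 1.0 mg/kg/day and 19.35 in vehicle, a level near the offset of 12.4, so no fold is given, and Fosl1, a Fos relative, averaged 780.4 and 125.3 in the same groups (2.39 ± 0.61). Of 6 Egr1 partners and targets 5 were higher and 0 lower with running and 1 higher without, among them Tgfb1 (3.37 ± 0.51) and the Egr1 corepressors Nab2 (means of 913.7 at 1.0 mg/kg/day and 312.4 in vehicle) and Nab1 (1.47 ± 0.34).

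In the Myc network, 5 of 11 genes were higher and 3 lower with running, and 1 higher and 1 lower without. The Max partners moved apart, with Mxd4 at 1.65 ± 0.46 and Mxi1 at -1.89 ± 0.33. Of 16 Myc target genes 7 were higher and 1 lower with running (median 0.84) and 4 higher and 0 lower without (median 0.60). Nme1, a nucleotide kinase, rose by 1.91 ± 0.26, Cdk4, a cell-cycle kinase, by 1.75 ± 0.28, and the nucleolar genes Fbl and Rrs1 by 1.70 ± 0.24 and 1.62 ± 0.29.

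Stress partners of Atf3 showed no common direction. Of 10 genes 2 were higher and 3 lower with running, and 1 higher and 0 lower without. Asns (asparagine synthetase) rose by 1.95 ± 0.52 and Sesn2 by 1.52 ± 0.32, while Chac1, a glutathione-degrading enzyme, fell, at -2.51 ± 0.68, and Atf5 fell, at -1.25 ± 0.29. Of 8 p53 targets, listed beside Btg2, 2 were higher and 2 lower with running, with Gadd45a at 1.63 ± 0.55 and Ccng1 at -1.70 ± 0.36. In soleus 0 genes of these lists passed at the high dose. The list counts with running stand beside 23% of probe sets called higher and 20.4% lower, and those without running beside 5.7% and 3.81%. Several of these lists share genes, among them Dusp5, Errfi1, Egr2, Fosl1, Atf5 and Gadd45a, so their counts are not separate results.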

How the data were processed

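RNA of 45 muscle samples was hybridised to Affymetrix rat arrays, 1 array per sample. The values analysed are the authors' deposited linear signal intensities, for which the submitters' processing notes name MAS5; the scaling target is not given in the sources used here. The trimmed mean was 597.9 to 598.8 on every array, and the number of arrays limits the precision.

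From these, log2(intensity + 12.4), with the 10th percentile as offset, was tested with limma 3.58.1 in R 4.3.3 (lmFit, contrasts.fit, eBayes with trend). Probe sets under the 30th percentile of mean log2 value (6.03) and 57 controls were left out, which kept 21729 of 31042. One fit covered the 30 gastrocnemius arrays, one the 15 soleus arrays and one all 45 for muscle comparisons. P-values were adjusted by Benjamini-Hochberg over all tested probe sets of each of 17 comparisons. The scripts were tested on simulated data.

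Symbols came from the platform annotation, where 20826 probe sets had 1 symbol, 436 several and 9780 none. Each gene is its brightest tested probe set. Every member is named, and of each other list at most the 4 called genes of largest change in exercised gastrocnemius at 1.0 mg/kg/day. The members and lists were chosen with earlier results of these data known. Alternatives changed the offset, scaling, filter, arrays fitted, moderation, weights, probe set rule and replicate block, and left out single arrays.

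In 0 of 13 comparisons did all same-numbered arrays correlate above 0.1 in their deviations. For soleus against gastrocnemius in exercised vehicle the same-numbered values were 0.03 to 0.09, against a mean of -0.02 for other numbers. With so few pairs this check cannot tell whether same-numbered arrays share an animal, and the tests treat the arrays as unpaired.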

Additional observations from a re-analysis of the deposited data

Results flagged for a closer look

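In 7 of 81 sets of values (9 genes in each of the 9 groups of 4 arrays), 1 array stood far from the others of its group by Dixon's test, where chance gives about 1 in 20, and 3 of the 7 came from 1 array. Fos was at 2426.9 in exercised gastrocnemius vehicle replicate 2 and at 203.2 to 219.7 in the other 3 arrays. In unexercised gastrocnemius at 0.1 mg/kg/day, replicate 3 had Junb at 1126.1 (150.8 to 203.1 in the others), Egr1 at 8411.7 (611.7 to 667.9) and Ier2 at 2317 (426.2 to 526.9). Myc was at 133.4 in exercised soleus vehicle replicate 1, below 330.9 to 396.1 in the others. Ier3 was at 1751.7 in exercised gastrocnemius at 1.0 mg/kg/day replicate 3, below 6564.2 to 7854.2, and at 1695.5 in exercised soleus vehicle replicate 3, below 2461.1 to 2590.2.

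The effect of 1.0 mg/kg/day differed between soleus and gastrocnemius of exercised animals by limma's interaction test for 4 genes. The soleus minus gastrocnemius difference in log2 fold change was -2.88 for Fos, -2.36 for Egr1, -2.89 for Myc and 1.67 for Nr4a1.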

How the results depend on the processing

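Of 3582 member values under other settings or without 1 array, 3459 stayed on their side of the threshold, 69 lost a call and 54 gained one. A sign changed in 157, none of them called, with a size of at most 0.74 in the reported fit. The counts of members called moved as follows. At 1.0 mg/kg/day in unexercised gastrocnemius (5 called) a fit on only the groups compared gave 0, array weights 9, and leaving out 1 array 0 to 8. There, an offset of 1, quantile normalization, median centring, no filter, no trend and the mean of probe sets gave 4 each, all without Fos, and leaving out 3 arrays gave 6. In exercised gastrocnemius (7 called) leaving out 1 array gave 7 to 8, and median centring and array weights gave 8 each, with Jun as the second lower gene. Exercised against unexercised gastrocnemius at 1.0 mg/kg/day (0 called) gave 1 with array weights. Soleus against gastrocnemius in unexercised vehicle (1 called) gave 4 on only the groups compared, 2 with array weights and 0 to 1 without 1 array. In exercised vehicle (2 called) quantile normalization, no filter and no trend gave 1 each, array weights 5, leaving out 1 array 0 to 2, and leaving out the 3 arrays of lowest actin ratio or of highest adipocyte signal 4 each. A fit on only the groups compared gave 3 there. The muscle difference at 1.0 mg/kg/day in exercised animals (4 called) gave 7 with array weights and 1 to 6 without 1 array. A filter at the 50th percentile gave 1 higher and 4 lower there. A fit on only the groups compared and both settings that leave out 3 arrays gave 1 higher and 5 lower each. In unexercised animals (0 called) the muscle difference gave 7 with array weights, 1 without the 3 arrays of lowest actin ratio and 0 to 4 without 1 array. Apart from the smaller number of arrays in some settings, the cause was not tested. The replicate block gave 7 in exercised and 4 in unexercised gastrocnemius at 1.0 mg/kg/day and 5 for the muscle difference in exercised animals, and changed no other count. The 2 settings that leave out 3 arrays were chosen after seeing the data. Groups of 3 or 4 arrays limit what can be told apart.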
